A study of Mus musculus with 11 samples.

Results

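Photoreceptors build their light-sensing outer segment from a modified cilium, and 42 mouse genes for the transport and gating of that cilium were followed here across genotype and drug. The rule that chose them was a list of symbols and used no measured value: subunits of the BBSome, of intraflagellar transport (IFT) trains, of the connecting cilium and transition zone, and of small modules that work with them. The list was drawn up with earlier results of these data known, as were the tests. All 42 were found by Ensembl identifier among the 37991 rows of the count table, and all 42 passed the filter on low counts that left 17099 genes to test. RNA was sequenced from the right retina of 11 mice at postnatal day 24, 1 library per animal. The groups were rd10 mice given the LSD1 inhibitor GSK2879552 (rd10 GSK, 3 mice), rd10 mice given saline (rd10 saline, 3 mice), wild-type C57Bl/6J mice given the inhibitor (WT GSK, 3 mice) and wild-type C57Bl/6J mice given saline (WT saline, 2 mice). The rd10 mice were of the strain labelled B6.CXB1-Pde6brd10/Jrd10, which carries a mutant allele of the rod phosphodiesterase gene Pde6b, and strain and genotype cannot be told apart. All 4 groups were injected intraperitoneally every day from postnatal day 9 to day 24, with the inhibitor at 4.2 mg/kg or with saline.

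The outer segment is joined to the rest of the photoreceptor by the connecting cilium, an elongated transition zone through which all outer segment protein must pass. Kinesin-2 motors carry IFT-B trains towards the tip, IFT-A serves the return journey, and the BBSome, recruited to membranes by the GTPase ARL6, rides on these trains and removes membrane proteins that do not belong in the cilium. ARL3 releases lipid-anchored phototransduction proteins inside the cilium. Mutations in many of these genes cause retinitis pigmentosa, Leber congenital amaurosis or syndromes such as Bardet-Biedl, Meckel and Joubert, in which retinal degeneration accompanies disease of the kidney, brain or limbs. The rd10 mutation lies in Pde6b, a gene of rod phototransduction, and not in a gene of the cilium.

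Libraries held 19657030 to 28053367 counts. Levels below are counts scaled to the size of the library after TMM normalisation (CPM), and changes are log2 fold changes with their standard error (±) from an edgeR quasi-likelihood fit over all 11 libraries. A gene is said to have risen or fallen where its p adjusted over all tested genes (Benjamini-Hochberg) was under 0.05. Pde6b was at 990.7, 1381 and 1757 CPM in rd10 GSK, 331.9, 333.1 and 422.3 CPM in rd10 saline, 2214 to 2282 CPM in WT GSK and 2231 and 2301 CPM in WT saline. Kdm1a, which encodes LSD1, was between 83.23 and 104.6 CPM in every library. A list of 16 rod markers without Pde6b averaged 45.4%, 68.4% and 86.3% of the WT saline level in rd10 GSK replicates 1, 2 and 3 and 20.1%, 20% and 24.2% in the rd10 saline replicates. Of these rod markers 15 fell in rd10 saline against WT saline and 16 rose in rd10 GSK against rd10 saline. In whole retina, fewer cells of a type and less RNA per cell cannot be told apart. Lens markers summed to 7313 CPM in rd10 GSK replicate 2 and 741.6 CPM in WT saline replicate 2, against at most 17.81 CPM elsewhere. A fit without these lens-bearing libraries leaves WT saline with 1 library. A call lost in that fit cannot tell lens content from fewer animals. The sum of 10 motile cilium markers was 33.07 to 41.01 CPM in rd10 GSK, 43.71 to 52.47 CPM in rd10 saline, 34.38 to 37.72 CPM in WT GSK and 36.71 and 38.56 CPM in WT saline. Markers of other cells moved with the groups too. All 11 microglia markers rose in rd10 saline against WT saline (median 3.30) and fell in rd10 GSK against rd10 saline (median -1.46). Their sum was 155.2 to 310.5 CPM in rd10 GSK, 511.3 to 608 CPM in rd10 saline, 92.77 to 98.33 CPM in WT GSK and 91.03 and 92.67 CPM in WT saline. Of 10 Mueller glia markers 7 rose in rd10 saline and 7 fell with GSK in rd10 (sums of 6348 to 7262 CPM in rd10 GSK and 10640 to 12240 CPM in rd10 saline). Of 12 cone markers 1 rose and 1 fell in rd10 saline (8.33% each), and 1 rose (8.33%) and 4 fell (33.3%) with GSK in rd10. Over all tested genes 21.5% rose and 19.0% fell in rd10 saline, and 17.6% rose and 15.2% fell with GSK in rd10. The 9 pigment epithelium markers averaged 115% to 220% of WT saline in rd10 GSK and 58.5% to 117% in rd10 saline. They were at 203% to 274% in WT GSK and at 55.8% and 144% in WT saline, and 0 of the 9 passed with GSK in either genotype. The part of all these cells in the members' values was not tested.

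In rd10 saline retinas 28 of the 42 cilium genes fell below WT saline and 0 rose (edgeR), with a median change of -0.49 and a range from -1.55 to 0.23. The share that fell was 66.7%, where 19.0% of all tested genes fell and 21.5% rose. At an unadjusted p under 0.05 there were 0 higher members, and the DESeq2 Wald test and limma-voom also called 0 higher. In rd10 GSK retinas 25 of the 42 rose above rd10 saline (59.5%, against 17.6% of all tested genes) and 3 fell (7.14%, against 15.2%), with a median of 0.29. The median over all tested genes was 0.02 in the comparison of rd10 saline with WT saline and 0.01 in the comparison of rd10 GSK with rd10 saline. These comparisons share the rd10 saline libraries, so a high or low value there moves both. Without rd10 saline replicate 2, 31 members passed against WT saline, of which 2 rose, the X-linked genes Rpgr and Rp2.

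**Figure D1:**
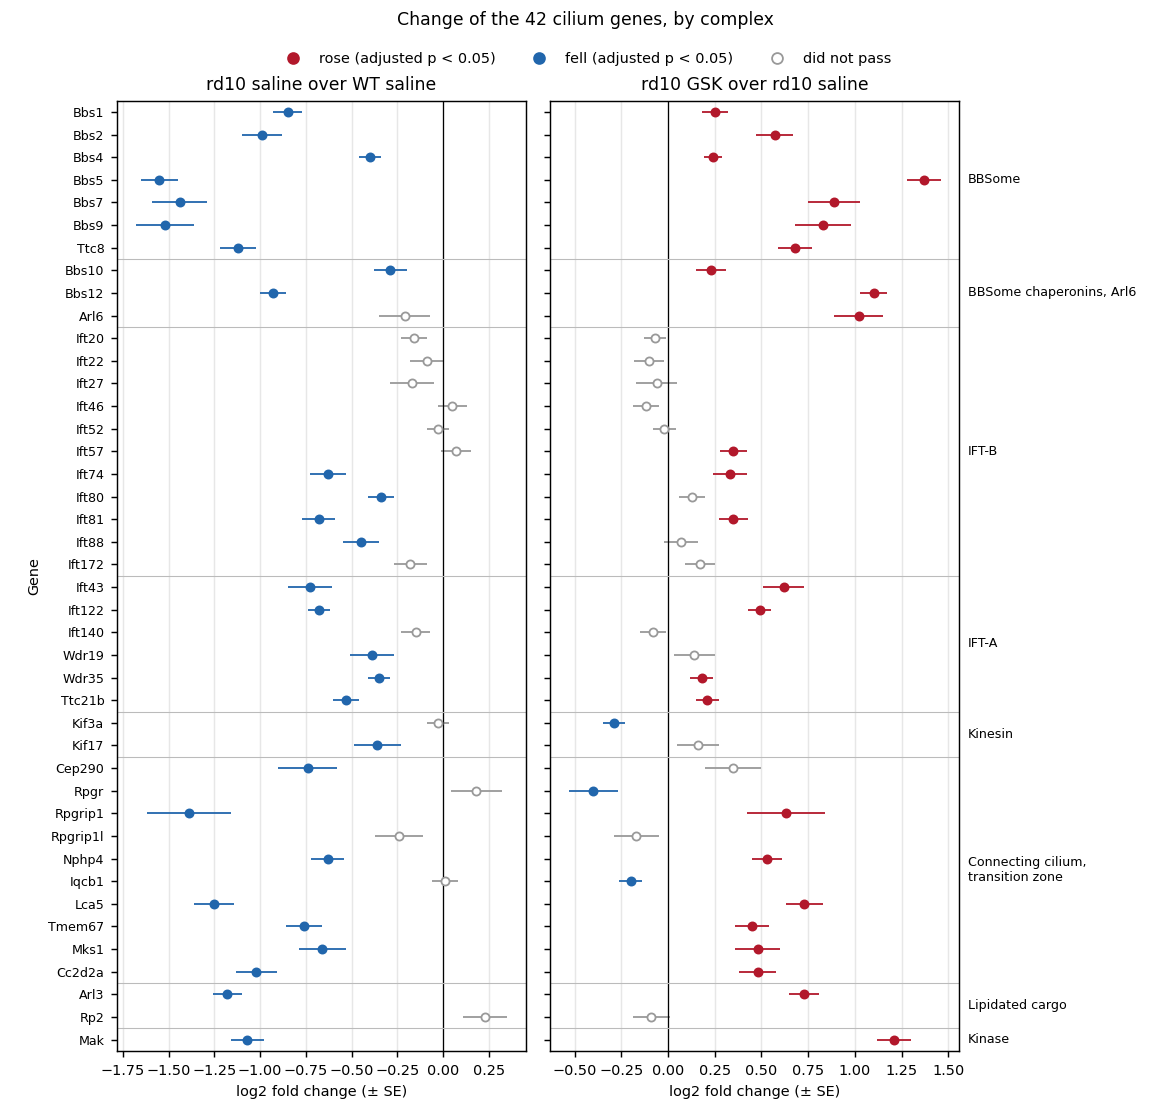
Log2 fold change (x axis, ± SE) of each of the 42 genes (y axis, grouped by complex) in rd10 saline over WT saline (left) and rd10 GSK over rd10 saline (right). Filled points passed at adjusted p under 0.05, and the longest shifts are those of Bbs5, -1.55 on the left and 1.37 on the right.

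Relative to WT saline, the 7 BBSome subunits averaged 63.9%, 75% and 85.2% in rd10 GSK and 47.2%, 46.1% and 49.5% in rd10 saline. The 11 IFT-B genes averaged 88%, 91.4% and 95.1% in rd10 GSK and 84.2%, 87.1% and 86.8% in rd10 saline. All 7 BBSome subunits fell in rd10 saline (median -1.12), as did 5 of 6 IFT-A genes (median -0.46), 7 of 10 connecting cilium and transition zone genes (median -0.70) and 4 of 11 IFT-B genes (median -0.17). With GSK in rd10, all 7 BBSome subunits rose (median 0.68), as did 4 of 6 IFT-A genes (0.20), 6 of 10 connecting cilium and transition zone genes (0.46) and 3 of 11 IFT-B genes (0.07). Over all tested genes 19.0% fell in rd10 saline against WT saline, and 17.6% rose with GSK in rd10. The IFT-B shares were 36.4% and 27.3%, nearest to these of the 4 groups. No test was made of one complex against another or against all genes.

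**Figure D2:**
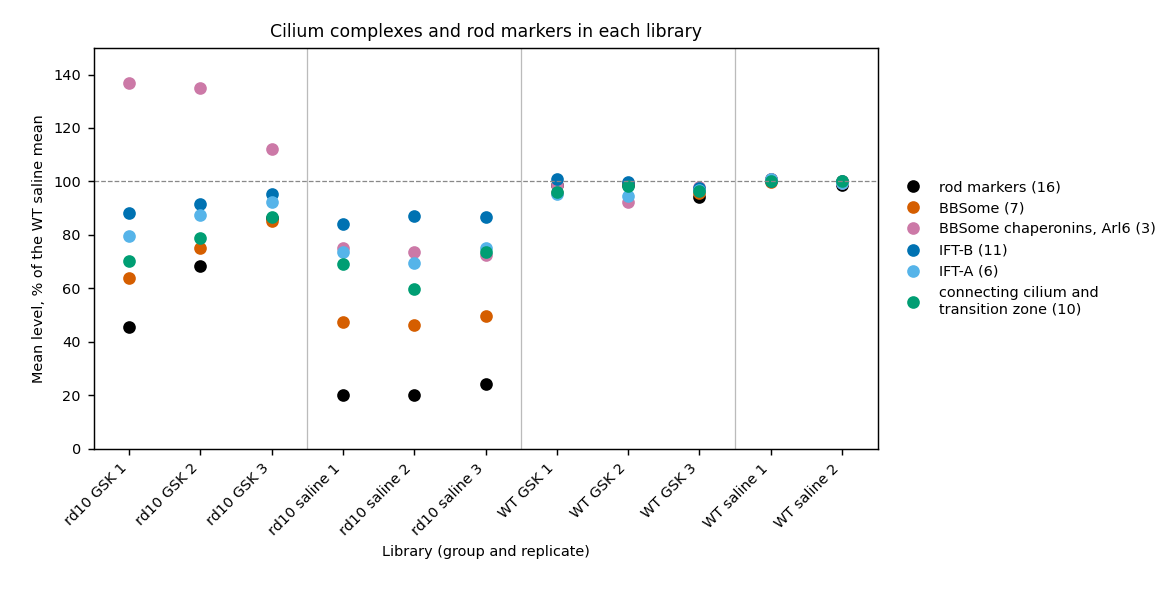
Mean level of 5 groups of cilium genes and of 16 rod markers in each library (x axis), as a percentage of the WT saline mean (y axis, dashed line at 100). The rod markers lie at 20% to 24.2% in rd10 saline, the BBSome at 46.1% to 49.5%, and the chaperonins with Arl6 stand above 100% in the 3 rd10 GSK libraries.

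Promoters of ciliary genes often carry an X-box, the sequence bound by RFX transcription factors, and promoters of photoreceptor genes often carry the core site of the homeobox factor CRX. RefSeq promoter windows (GRCm38.p6, 250 bases before to 50 after an annotated start) matched 38 of the 42 members by symbol, in 44 windows, and Ift80, Ift81, Ift122 and Tmem67 had no window. An X-box, spelled here as GTNNCC followed after 0 to 3 bases by NGNAAC on either strand, was found in 11 of the 44 windows (25%) and in 5.25% of all 32851 windows. Those 11 windows belong to 10 genes, Bbs1, Bbs4, Bbs7, Ift22, Ift57, Ift74, Kif17, Lca5, Mks1 and Nphp4, and the 2 windows of Lca5 overlap. The CRX core TAATCC was in 3 of the 44 windows (6.82%, against 7.06% of all), and the E-box CACGTG in 3 (6.82%, against 7.15%). The GTTGCC half-site, which an X-box may contain, was in 34.1% of member windows and 12.5% of all. In looser spellings, the CRX core as TAATCN was in 18.2% of member windows and 22% of all. The E-box as CANNTG was in 54.5% and 72.3%. A match is only a description of the letters in a window. The 250 bases before the start are shown for 5 members whose behaviour differed, with the motif in capitals: an X-box in Bbs7 (chr3:36613390-36613639, minus strand), Ift57 (chr16:49699044-49699293, plus strand, 2 matches) and Lca5 (chr9:83441128-83441377, minus strand), and the CRX core in Mak (chr13:41070466-41070715, minus strand, the downstream of 2 annotated starts) and, in reverse complement, Rpgrip1 (chr14:52110653-52110902, plus strand).
Bbs7: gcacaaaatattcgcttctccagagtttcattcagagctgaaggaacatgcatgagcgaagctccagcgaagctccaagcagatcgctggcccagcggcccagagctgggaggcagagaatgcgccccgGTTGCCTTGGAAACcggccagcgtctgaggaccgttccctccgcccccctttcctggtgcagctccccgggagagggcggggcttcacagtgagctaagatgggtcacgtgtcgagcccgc
Ift57: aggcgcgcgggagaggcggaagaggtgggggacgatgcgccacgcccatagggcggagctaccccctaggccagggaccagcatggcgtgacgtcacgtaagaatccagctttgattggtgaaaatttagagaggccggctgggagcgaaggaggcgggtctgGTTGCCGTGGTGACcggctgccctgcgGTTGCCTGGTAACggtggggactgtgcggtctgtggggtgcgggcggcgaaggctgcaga
Lca5: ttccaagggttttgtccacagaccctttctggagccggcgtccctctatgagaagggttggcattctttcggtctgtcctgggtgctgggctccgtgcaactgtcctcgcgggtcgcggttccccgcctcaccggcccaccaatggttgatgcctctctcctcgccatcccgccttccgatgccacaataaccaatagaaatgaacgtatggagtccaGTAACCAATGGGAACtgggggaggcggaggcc
Mak: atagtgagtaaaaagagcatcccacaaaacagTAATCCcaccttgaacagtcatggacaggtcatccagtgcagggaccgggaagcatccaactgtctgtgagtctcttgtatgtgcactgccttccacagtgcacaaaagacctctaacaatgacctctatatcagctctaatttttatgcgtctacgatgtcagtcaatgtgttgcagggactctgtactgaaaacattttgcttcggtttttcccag
Rpgrip1: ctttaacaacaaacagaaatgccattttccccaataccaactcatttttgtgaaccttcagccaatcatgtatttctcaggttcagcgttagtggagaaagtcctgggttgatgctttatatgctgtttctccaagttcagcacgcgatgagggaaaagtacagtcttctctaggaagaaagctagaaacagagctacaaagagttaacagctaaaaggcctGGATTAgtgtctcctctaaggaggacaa

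The X-box of Bbs7 begins 121 bases before the annotated start, those of Ift57 begin 87 and 60 bases before it, and that of Lca5 begins 32 bases before it. Bbs7 and Lca5 were among the genes that fell furthest in rd10 saline, while Ift57 did not pass there (0.07 ± 0.08, edgeR adjusted p = 0.542). Of the other genes with an X-box, Bbs1, Bbs4, Ift74, Kif17, Mks1 and Nphp4 fell in rd10 saline and Ift22 did not pass. Bbs1 holds both an X-box and the CRX core and is not shown. The window of Bbs7 also holds an E-box, which is left in lower case above. Whether the motifs go with the changes was not tested. The windows of Bbs5, Arl6 and Bbs12, which had the largest rises with GSK among the BBSome and its partners, held none of these 3 motifs. The build of these windows differs from NCBIM37 and mm9, the builds that the submitters' processing notes name.

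The BBSome subunits had the lowest median change of the groups of members in rd10 saline (-1.12). Bbs5, the subunit that binds phosphoinositides in the membrane, was at 55.5, 67.2 and 70.4 CPM in rd10 GSK, 22.4, 25.2 and 26.8 CPM in rd10 saline, 69.7, 70 and 73.1 CPM in WT GSK and 69.9 and 75.9 CPM in WT saline. Every rd10 saline library lay below every other library, and rd10 GSK overlapped the wild-type range. Bbs5 fell in rd10 saline (-1.55 ± 0.10, edgeR adjusted p = 1.23e-06). With GSK in rd10 it rose 2.59-fold (1.37 ± 0.09, edgeR adjusted p = 2.55e-06). Bbs9, a scaffold subunit, was at 60.2, 83.5 and 101 CPM in rd10 GSK, 44.2, 45.2 and 47.9 CPM in rd10 saline, 127, 133 and 126 CPM in WT GSK and 133 and 130 CPM in WT saline. It fell in rd10 saline (-1.52 ± 0.16, edgeR adjusted p = 8.06e-05). Its rise with GSK was 0.83 ± 0.15 (edgeR adjusted p = 0.00232) and left all 3 rd10 GSK libraries below the wild-type libraries. Bbs7, a beta-propeller subunit, was at 100, 114 and 151 CPM in rd10 GSK, 67.6, 56.7 and 72.7 CPM in rd10 saline, 161, 169 and 160 CPM in WT GSK and 184 and 173 CPM in WT saline. Its 4 groups did not overlap, and the rd10 GSK libraries again lay between rd10 saline and wild type. Bbs7 fell by 1.44 ± 0.15 in rd10 saline and rose by 0.89 ± 0.14 with GSK in rd10 (edgeR adjusted p = 0.00111).

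Ttc8, the subunit also called BBS8, was at 74.4, 91.7 and 96.3 CPM in rd10 GSK, 56, 50.7 and 57.1 CPM in rd10 saline, 120, 128 and 115 CPM in WT GSK and 120 and 117 CPM in WT saline. It fell in rd10 saline (-1.12 ± 0.10) and rose with GSK in rd10 (0.68 ± 0.09, edgeR adjusted p = 0.000203). Bbs2, which pairs with Bbs7 in the complex, was at 62.7, 68.8 and 87 CPM in rd10 GSK, 46.8, 50.6 and 49.5 CPM in rd10 saline, 94, 96 and 92.5 CPM in WT GSK and 92.1 and 102 CPM in WT saline. Its changes were -0.99 ± 0.11 in rd10 saline and 0.57 ± 0.10 with GSK in rd10. Bbs1, the subunit through which ARL6 recruits the complex, and Bbs4, a subunit with tetratricopeptide repeats, changed least of the 7 with GSK in rd10, by 0.25 ± 0.07 (edgeR adjusted p = 0.0173) and 0.24 ± 0.05 (edgeR adjusted p = 0.00556). In rd10 saline Bbs1 fell by 0.85 ± 0.08 and Bbs4 by 0.40 ± 0.06. The Bbs1 rise did not pass without the lens-bearing libraries, without rd10 GSK replicate 2 or replicate 3, or with only the compared groups fitted, and the last of these also lost the Bbs4 rise.

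**Figure D3:**
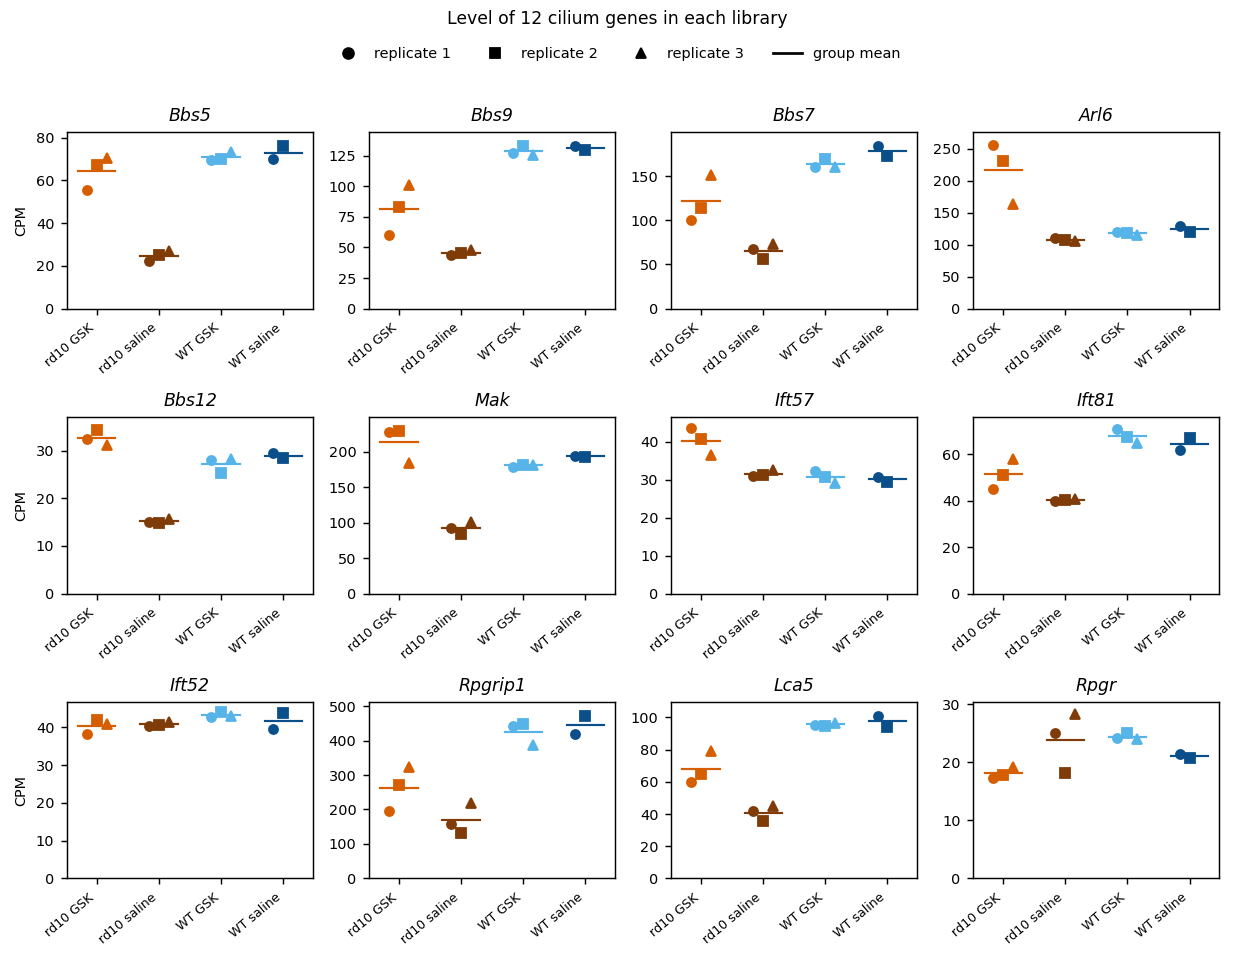
Level of 12 of the genes in each library (y axis, CPM from 0), by group (x axis); symbols mark replicates and bars group means. In rd10 GSK, Arl6 at 255, 231 and 164 CPM exceeds every other library, Bbs5 at 55.5 to 70.4 CPM reaches the wild-type range, and Bbs9 at 60.2 to 101 CPM does not.

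Of Arl6 and the chaperonin-like genes Bbs10 and Bbs12, 2 fell in rd10 saline and 3 rose with GSK in rd10. Over all tested genes 19.0% fell and 17.6% rose in these comparisons. Arl6, the GTPase that recruits the complex to membranes, was at 255, 231 and 164 CPM in rd10 GSK, 110, 107 and 105 CPM in rd10 saline, 120, 118 and 115 CPM in WT GSK and 129 and 119 CPM in WT saline. The rd10 GSK libraries lay above all others, and rd10 saline lay only slightly below wild type. With GSK in rd10 Arl6 rose by 1.02 ± 0.13 (2.02-fold, edgeR adjusted p = 0.000308) and it was above WT saline by 0.81 ± 0.15 (1.75-fold, edgeR adjusted p = 0.00431). The difference between rd10 saline and WT saline did not pass (-0.21 ± 0.14, edgeR adjusted p = 0.276). The rise against WT saline was lost without the lens-bearing libraries and when only those groups were fitted. The exons of Arl6 share 2.62% of their bases with a neighbouring gene. Bbs12, a chaperonin-like protein that helps to assemble the BBSome, was at 32.4, 34.3 and 31.1 CPM in rd10 GSK, 15.1, 14.9 and 15.7 CPM in rd10 saline, 28.1, 25.4 and 28.2 CPM in WT GSK and 29.5 and 28.4 CPM in WT saline. It fell in rd10 saline (-0.93 ± 0.07, edgeR adjusted p = 4.89e-06) and rose with GSK in rd10 (1.10 ± 0.07, edgeR adjusted p = 1.82e-06). Its rd10 GSK libraries lay above the wild-type ones, but the difference from WT saline did not pass (0.17 ± 0.07, edgeR adjusted p = 0.113). Bbs10, a second chaperonin-like protein, was at 13, 14.2 and 13.6 CPM in rd10 GSK, 11.9, 11.8 and 11.1 CPM in rd10 saline, 14.5, 13.3 and 14.7 CPM in WT GSK and 13.5 and 14.8 CPM in WT saline. Its changes of -0.29 ± 0.09 and 0.23 ± 0.08 passed narrowly (edgeR adjusted p = 0.0230 and 0.0441), the fall was lost in 4 of 20 alternative settings, and the rise with GSK in 13 of them.

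Among the 11 IFT-B genes, 4 fell in rd10 saline (36.4%, against 19.0% of all tested genes) and 7 did not pass. With GSK in rd10, 3 of the 11 rose (27.3%, against 17.6% of all tested genes). Ift81 and Ift74, which together bind tubulin cargo, fell by 0.68 ± 0.09 and 0.63 ± 0.10. Ift81 was at 45.2, 51.3 and 58.1 CPM in rd10 GSK, 39.9, 40.3 and 40.9 CPM in rd10 saline, 70.9, 67.6 and 65 CPM in WT GSK and 62.1 and 66.9 CPM in WT saline. The rd10 GSK libraries lay between rd10 saline and wild type, and the rise with GSK was 0.35 ± 0.08 (edgeR adjusted p = 0.00570). Ift74 rose with GSK by a similar amount (0.33 ± 0.09, edgeR adjusted p = 0.0129), which did not pass with only the compared groups fitted. Ift88, a core subunit whose hypomorphic mouse allele damages photoreceptors, and Ift80, a peripheral subunit, fell in rd10 saline (-0.45 ± 0.10 and -0.34 ± 0.07) and did not pass with GSK in rd10 (0.07 ± 0.09 and 0.13 ± 0.07).

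Ift57, a peripheral IFT-B subunit, was at 43.5, 40.6 and 36.4 CPM in rd10 GSK, 31, 31.2 and 32.5 CPM in rd10 saline, 32.2, 30.6 and 29 CPM in WT GSK and 30.7 and 29.5 CPM in WT saline. Its rd10 GSK libraries lay above the other 8, and among those 8 the rd10 saline libraries lay above WT saline by a small margin and overlapped WT GSK. With GSK in rd10 it rose (0.35 ± 0.07, edgeR adjusted p = 0.00352), also relative to WT saline (0.42 ± 0.08, edgeR adjusted p = 0.00486). Without the lens-bearing libraries or without WT saline replicate 2 the rise against WT saline did not pass. The gene shares 7.86% of its exonic bases with the predicted gene Gm15518, and reads of overlapping genes may be split between them. The other 6 IFT-B genes passed in neither comparison. Ift52, a core subunit, was at 38.2, 41.9 and 40.9 CPM in rd10 GSK, 40.3, 40.6 and 41.5 CPM in rd10 saline, 42.7, 44.1 and 42.9 CPM in WT GSK and 39.5 and 43.8 CPM in WT saline. Ift20, Ift22, Ift27, Ift46 and Ift172 had changes from -0.18 to 0.05 in rd10 saline and from -0.12 to 0.17 with GSK in rd10.

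Of the 6 IFT-A genes, 5 fell in rd10 saline (83.3%, against 19.0% of all tested genes). With GSK in rd10, 4 of the 6 rose (66.7%, against 17.6%). Ift122, a core IFT-A subunit, was at 60.8, 65.3 and 65.4 CPM in rd10 GSK, 44, 43.7 and 49 CPM in rd10 saline, 66.3, 68.3 and 67.1 CPM in WT GSK and 74.5 and 71.3 CPM in WT saline. It fell by 0.68 ± 0.06 in rd10 saline (edgeR adjusted p = 1.26e-05) and rose by 0.49 ± 0.06 with GSK (edgeR adjusted p = 0.000107). Ift43, a small peripheral subunit, was at 23.5, 28.4 and 29.6 CPM in rd10 GSK, 17.1, 19.8 and 16.2 CPM in rd10 saline, 29, 24.8 and 26.7 CPM in WT GSK and 28 and 30.9 CPM in WT saline. The rd10 saline libraries were the lowest for both genes. Ift43 fell in rd10 saline by 0.73 ± 0.12 and rose with GSK by 0.62 ± 0.11. Ttc21b, the subunit also called IFT139, fell by 0.53 ± 0.07 and rose by 0.21 ± 0.06 (edgeR adjusted p = 0.0236), and Wdr35 fell by 0.35 ± 0.06 and rose by 0.18 ± 0.06 (edgeR adjusted p = 0.0303). Both of these rises were lost without the lens-bearing libraries, when the fit held the compared groups alone, and without rd10 GSK replicate 3, and that of Wdr35 also without rd10 saline replicate 1 or rd10 GSK replicate 2. Wdr19, or IFT144, fell by 0.39 ± 0.12 (edgeR adjusted p = 0.0205) and did not pass with GSK (0.14 ± 0.11). The fall of Wdr19 was lost without the lens-bearing libraries or WT saline replicate 1. Ift140 passed in neither comparison (-0.15 ± 0.08 and -0.08 ± 0.07).

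Of the 2 kinesin-2 genes, 1 fell in rd10 saline and 1 fell with GSK in rd10. Over all tested genes 19.0% and 15.2% fell in these comparisons. Kif3a, the motor subunit of the heterotrimeric kinesin that drives IFT-B outward, was at 127, 123 and 129 CPM in rd10 GSK, 160, 151 and 153 CPM in rd10 saline, 153, 145 and 167 CPM in WT GSK and 160 and 157 CPM in WT saline. The 3 rd10 GSK libraries were the lowest of the 11, and the other groups overlapped. With GSK in rd10 Kif3a fell (-0.29 ± 0.06, edgeR adjusted p = 0.00221), also relative to WT saline (-0.32 ± 0.06, edgeR adjusted p = 0.00409). Scaled to amacrine, bipolar and ganglion cell genes in place of all genes, the first of these became -0.01, and neither passed. The fall against WT saline was also lost without the lens-bearing libraries or WT saline replicate 1. Kif17, a homodimeric kinesin, had the lowest level per kilobase of exon of the 42 in WT saline (1.31 CPM per kb). It was at 4.84 to 5.47 CPM in rd10 GSK, 4.5 to 4.79 CPM in rd10 saline, 5 to 5.86 CPM in WT GSK and 5.79 and 6.24 CPM in WT saline. Its fall in rd10 saline (-0.36 ± 0.13, edgeR adjusted p = 0.0394) was lost in 12 of 20 alternative settings.

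Connecting cilium and transition zone genes fell in rd10 saline in 7 of 10 cases (70%, against 19.0% of all tested genes). Rpgrip1, which anchors RPGR in the connecting cilium, was at 197, 270 and 322 CPM in rd10 GSK, 157, 133 and 219 CPM in rd10 saline, 442, 448 and 387 CPM in WT GSK and 420 and 470 CPM in WT saline. All rd10 libraries lay below all wild-type libraries, and rd10 GSK overlapped rd10 saline. Rpgrip1 fell in rd10 saline (-1.39 ± 0.23, edgeR adjusted p = 0.00141). Its rise with GSK in rd10 (0.63 ± 0.21, edgeR adjusted p = 0.0454) was lost in 12 of 20 alternative settings, and 8.70% of its exonic bases are shared with Supt16. Lca5, which encodes lebercilin, an IFT-associated protein mutated in Leber congenital amaurosis, was at 59.9, 65.1 and 79.1 CPM in rd10 GSK, 42.1, 35.9 and 44.8 CPM in rd10 saline, 95.6, 94.6 and 96.8 CPM in WT GSK and 101 and 94.2 CPM in WT saline. The rd10 GSK libraries lay apart from rd10 saline and from wild type. Lca5 fell by 1.25 ± 0.11 in rd10 saline (edgeR adjusted p = 1.13e-05) and rose by 0.73 ± 0.10 with GSK (edgeR adjusted p = 0.000349). Cc2d2a, Tmem67 and Mks1 belong to the Meckel syndrome module of the transition zone. Cc2d2a was at 64.1, 78.4 and 88.7 CPM in rd10 GSK, 55.6, 51.4 and 58.6 CPM in rd10 saline, 90.9, 98.4 and 107 CPM in WT GSK and 112 and 112 CPM in WT saline. It fell by 1.02 ± 0.11 in rd10 saline and rose by 0.48 ± 0.10 with GSK in rd10. Tmem67 (-0.76 ± 0.10 and 0.45 ± 0.09) and Mks1 (-0.66 ± 0.13 and 0.48 ± 0.12) also passed in both comparisons. So did Nphp4, a nephronophthisis protein that partners Rpgrip1 (-0.63 ± 0.09 and 0.53 ± 0.08). Its 28.6, 31.4 and 34.6 CPM in rd10 GSK overlapped the wild-type libraries.

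Cep290, which links the transition zone membrane to its microtubules, was at 96.7, 107 and 108 CPM in rd10 GSK, 84.3, 60.1 and 101 CPM in rd10 saline, 138, 140 and 146 CPM in WT GSK and 137 and 137 CPM in WT saline. It fell in rd10 saline (-0.74 ± 0.16, edgeR adjusted p = 0.00501) and did not pass with GSK in rd10 (0.35 ± 0.15, edgeR adjusted p = 0.0961). Rpgr, the X-linked retinitis pigmentosa GTPase regulator, was at 17.4, 17.9 and 19.3 CPM in rd10 GSK, 25, 18.2 and 28.4 CPM in rd10 saline, 24.2, 25.1 and 24 CPM in WT GSK and 21.4 and 20.8 CPM in WT saline. Rpgr fell with GSK in rd10 (-0.40 ± 0.13, edgeR adjusted p = 0.0333), which did not pass in 11 of 20 alternative settings. In rd10 saline against WT saline it did not pass with all libraries (0.18 ± 0.14) and rose without rd10 saline replicate 2 (0.33, edgeR adjusted p = 0.0103). That replicate was the lowest of its group in 13 of the 14 members with the longest exons (6.81 to 14.7 kb), Rpgr, Cep290, Rpgrip1 and Wdr19 among them, and in 3 of the 14 shortest (1.52 to 3.61 kb). Over all tested genes in the same length ranges it was lowest in 70.5% of the long and 19.3% of the short ones. Without it Cep290 still fell (-0.57) and so did Rpgrip1 (-1.25), and Rpgr fell further with GSK (-0.55). The change of Cep290 with GSK was then 0.18, and the rise of Rpgrip1 did not pass (0.50, edgeR adjusted p = 0.120). Xist, transcribed from the inactive X chromosome, was at most 0.338 CPM in rd10 GSK replicates 1 and 3, rd10 saline replicate 2 and WT GSK replicate 2, and at least 780.5 CPM in the other 7 libraries. WT saline thus held no library with low Xist, and rd10 saline replicate 2 was the only such library of its group. Leaving out that replicate therefore also leaves only rd10 saline libraries with high Xist. The part of this difference in the members' values, X-linked or not, was not tested.

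Iqcb1, also called nephrocystin-5, which holds CEP290 in place, fell with GSK in rd10 (-0.20 ± 0.06, edgeR adjusted p = 0.0223). It was at 21.5, 20.5 and 21.1 CPM in rd10 GSK, 24, 24.6 and 23.8 CPM in rd10 saline, 22.5, 22.0 and 21.3 CPM in WT GSK and 24 and 23.8 CPM in WT saline. Its rd10 GSK libraries were below rd10 saline but overlapped WT GSK. The fall did not pass in 9 of 20 alternative settings, among them the DESeq2 Wald test and leaving out any 1 of the rd10 saline replicates, and under scaling to inner retina genes the value was 0.09. Rpgrip1l, a relative of Rpgrip1 found in cilia of many tissues, passed in neither comparison (-0.24 ± 0.13 in rd10 saline and -0.17 ± 0.12 with GSK).

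Arl3, the GTPase that unloads lipid-anchored cargo in the cilium, had the highest level per kilobase of the 42 in WT saline (85.3 CPM per kb). It was at 139, 153 and 178 CPM in rd10 GSK, 91.4, 97.1 and 93.5 CPM in rd10 saline, 204, 205 and 193 CPM in WT GSK and 216 and 208 CPM in WT saline. The rd10 GSK libraries lay between rd10 saline and wild type without overlap. Arl3 fell by 1.18 ± 0.08 in rd10 saline (edgeR adjusted p = 2.64e-06) and rose by 0.73 ± 0.08 with GSK (edgeR adjusted p = 5.20e-05). Rp2, the X-linked GTPase-activating protein that switches ARL3 off, was at 20.3, 23.2 and 19.8 CPM in rd10 GSK, 24.8, 18.7 and 23.7 CPM in rd10 saline, 20.6, 19.6 and 20.3 CPM in WT GSK and 19.5 and 18.7 CPM in WT saline. Its rd10 saline libraries overlapped those of every other group, and WT saline lay just below rd10 GSK and WT GSK. It passed in neither comparison (0.23 ± 0.12 and -0.09 ± 0.10). Without rd10 saline replicate 2, Rp2 rose in rd10 saline (0.34, edgeR adjusted p = 0.0122).

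Mak, a kinase of the photoreceptor axoneme that limits cilium length, was at 228, 230 and 184 CPM in rd10 GSK, 92.8, 84.5 and 101 CPM in rd10 saline, 179, 182 and 182 CPM in WT GSK and 195 and 193 CPM in WT saline. Its rd10 saline libraries lay below all the others, and 2 of the 3 rd10 GSK libraries lay above every wild-type library. Mak fell in rd10 saline (-1.07 ± 0.09, edgeR adjusted p = 8.90e-06) and rose with GSK in rd10 (1.21 ± 0.09, 2.31-fold, edgeR adjusted p = 4.25e-06). Against WT saline the rd10 GSK level did not pass (0.14 ± 0.09, edgeR adjusted p = 0.305).

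**Figure D4:**
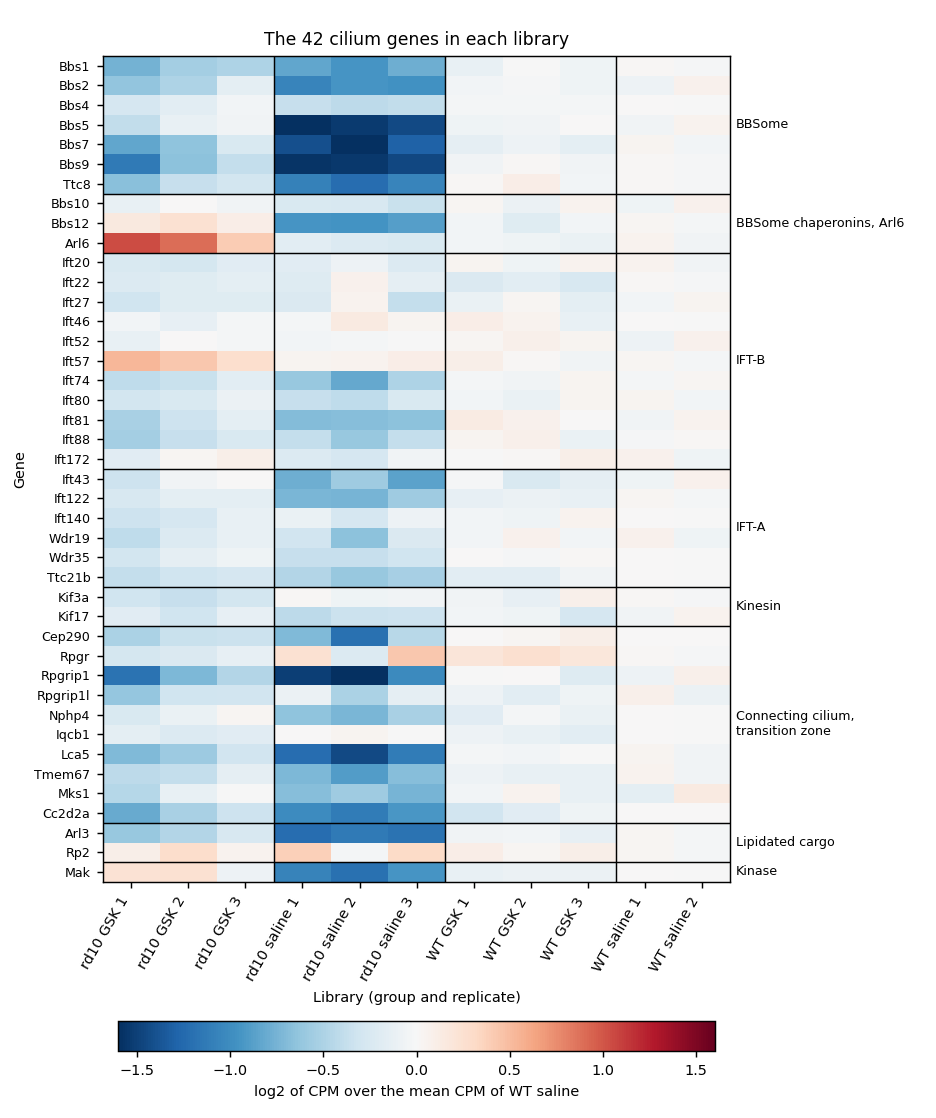
Level of each of the 42 genes (rows, grouped by complex) in each library (columns), as log2 of CPM over the mean CPM of WT saline. Many rows that are blue in rd10 saline are paler in rd10 GSK. Bbs5 is an example, at 22.4 to 26.8 CPM in rd10 saline against 69.9 and 75.9 CPM in WT saline. Rpgrip1l, Ift140 and Ift20 are among those bluer in rd10 GSK, and Arl6 and Ift57 are reddest there.

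Within rd10 GSK the 3 retinas differed. Replicate 1 was the lowest of the 3 in 32 of the 42 members (76.2%, against 38.2% of all tested genes), and replicate 3 was the highest in 33 (78.6%, against 37.8%). Replicate 1 also had the lowest rod marker level, 45.4% of WT saline, and replicate 3 the highest, 86.3%. In Arl6, Bbs12, Ift57, Mak and Rp2 replicate 3 was the lowest instead. For Arl6 it was at 164 CPM, where replicate 1 was at 255 CPM. The part of rod content in the members' levels was not tested.

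In wild-type retinas the inhibitor moved none of the 42 past the threshold (edgeR), with a median change of -0.04 and a range from -0.22 to 0.21, where 0.532% of all tested genes passed (0.444% higher and 0.0877% lower). At an unadjusted p under 0.05 there were 0 higher and 1 lower, Ift22 (-0.22 ± 0.08, edgeR adjusted p = 0.441), and the DESeq2 Wald test and limma-voom also called 0. With 2 WT saline libraries, small changes could be missed. The change with GSK was more positive in rd10 than in wild type in 17 of the 42 (40.5%, against 7.49% of all tested genes), tested as the genotype by drug interaction, and more negative in 0 (2 at an unadjusted p under 0.05), against 4.98% of all tested genes. The DESeq2 Wald test called 17 more positive and 2 more negative, and limma-voom 16 and 0. The 17 include 6 of the 7 BBSome subunits, Bbs12, Arl6, 3 IFT-A genes, 4 connecting cilium and transition zone genes, Arl3 and Mak. The largest differences were those of Bbs5 (1.41 ± 0.13, edgeR adjusted p = 0.000109), Mak (1.31 ± 0.13, edgeR adjusted p = 0.000140) and Bbs12 (1.19 ± 0.10, edgeR adjusted p = 5.55e-05). Without WT saline replicate 1 or replicate 2 the count was 10 or 11, and without the lens-bearing libraries it was 5.

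Set against untreated wild type, rd10 GSK retinas had 19 members below WT saline (45.2%, against 10.3% of all tested genes) and 2 above, Arl6 and Ift57 (4.76%, against 14.1%), with a median of -0.22. The furthest below were Rpgrip1 (-0.76 ± 0.23), Bbs9 (-0.69 ± 0.16), Bbs1 (-0.60 ± 0.08), Bbs7 (-0.55 ± 0.15) and Cc2d2a (-0.54 ± 0.11). Bbs5 (-0.18 ± 0.10), Nphp4 (-0.10 ± 0.09) and Bbs12 (0.17 ± 0.07) did not pass. These counts rest on few libraries: 21 members passed in all, but 3 without WT saline replicate 1, 7 without WT saline replicate 2, 11 without rd10 GSK replicate 2, 1 without the lens-bearing libraries and 5 when only these groups were fitted. Bbs1 passed in all 20 alternative settings.

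The scaling of the libraries matters for the direction of the smaller changes. The amacrine, bipolar and ganglion cell markers themselves fell with GSK in rd10 under TMM scaling, in 4 of 9, 9 of 12 and 8 of 9 cases. Over all tested genes 15.2% fell there, and 1 bipolar marker rose. With GSK in wild type 2 of the 9 ganglion cell markers fell (22.2%, against 0.0877% of all tested genes). Of the amacrine and bipolar markers 0 passed in wild type. The reference genes of the scaling that follows were thus not free of change with GSK. Scaled to amacrine, bipolar and ganglion cell genes, the median of all tested genes moved to 0.29 in rd10 GSK against rd10 saline, and 34 members rose and 0 fell there, in place of 25 and 3. Against WT saline the same scaling moved the median of all genes to 0.26 and gave 7 members above and 5 below. The falls of rd10 saline against WT saline numbered 29 under it. The shares of all tested genes that passed under this scaling were not computed. The counts of members under it thus have no share of all genes beside them.

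Other cilium genes outside the 42 were measured as a wider list of 67, of which 66 were tested. In rd10 saline 42 of the 66 fell (63.6%, against 19.0% of all tested genes) and 4 rose (6.06%, against 21.5%). The median was -0.44. With GSK in rd10, 40 of the 66 rose (60.6%, against 17.6%) and 3 fell (4.55%, against 15.2%), with a median of 0.33. Of 10 genes of the photoreceptor axoneme and calyx, 9 fell in rd10 saline (median -1.07) and 9 rose with GSK (median 0.72). Rp1, a microtubule-binding protein of the outer segment axoneme, was at 1630, 2090 and 2190 CPM in rd10 GSK, 686, 502 and 785 CPM in rd10 saline, 2610, 2620 and 2820 CPM in WT GSK and 2630 and 2670 CPM in WT saline. Its changes were -2.01 ± 0.17 and 1.58 ± 0.15, its relative Rp1l1 fell in rd10 saline by 1.99 ± 0.19, and Tulp1, which moves rhodopsin towards the outer segment, rose with GSK by 1.39 ± 0.12. Unc119 and Arl13b work with ARL3, the first as a carrier of lipid-anchored transducin and the second as its activating exchange factor. Unc119 changed by -1.66 ± 0.16 and 1.31 ± 0.15, and Arl13b by -1.65 ± 0.14 and 1.17 ± 0.13.

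Among other transport genes, Wdr60, a subunit of the dynein that powers the return of IFT trains, fell by 1.08 ± 0.12 in rd10 saline and rose by 0.73 ± 0.11 with GSK. Kif3b, the motor partner of Kif3a, fell by 0.80 ± 0.06 in rd10 saline. Its libraries were at 91, 85 and 93.9 CPM there and higher, at 115, 124 and 131 CPM, in rd10 GSK. Kifap3, the kinesin-associated subunit of the same motor, fell with GSK in rd10 (-0.24 ± 0.05). Ttc26, an IFT-B subunit, rose with GSK (0.65 ± 0.11). Of the other BBSome genes, Lztfl1 and Bbip1 fell in rd10 saline (-0.62 ± 0.06 and -0.41 ± 0.06) and rose with GSK (0.20 ± 0.06 and 0.34 ± 0.06), while Trim32 fell with GSK (-0.22 ± 0.05). Cep164 and Cep250, of the distal appendages and the centriole linker, fell in rd10 saline (-1.34 ± 0.16 and -1.12 ± 0.19) and rose with GSK (0.83 ± 0.14 and 0.56 ± 0.17). The transition zone genes Tmem107 and Tmem17 fell in rd10 saline (-1.20 ± 0.12 and -0.92 ± 0.11), and Tmem107 and Tctn2 had the largest rises of their list with GSK (0.85 ± 0.11 and 0.60 ± 0.07).

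A few of these other genes ran the opposite way. Tulp3, an adaptor that carries receptors into cilia with IFT-A, was at 64.4, 45.2 and 39.2 CPM in rd10 GSK, 55.9, 60.4 and 53.4 CPM in rd10 saline, 31, 30.6 and 31.1 CPM in WT GSK and 28.6 and 28.6 CPM in WT saline. It was higher in every rd10 library than in any wild-type library and rose in rd10 saline (0.98 ± 0.17, edgeR adjusted p = 0.00129). Nek8, a kinase of the proximal cilium, also rose in rd10 saline (1.08 ± 0.18) and fell with GSK in rd10 (-0.59 ± 0.15, edgeR adjusted p = 0.0115). Of the 10 motile cilium markers 9 were tested. In rd10 saline 5 of the 9 rose (55.6%, against 21.5% of all tested genes) and 0 fell. With GSK in rd10 3 of the 9 fell (33.3%, against 15.2% of all tested genes) and 0 rose.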

How the data were processed

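The authors' deposited table held raw read counts per gene for 37991 Ensembl identifiers in 11 libraries. The submitters' processing notes list bcl2fastq, HISAT2 2.1.0, HTSeq and edgeR, with NCBIM37 and mm9 as builds. How HTSeq was set (version, strand, annotation) is not stated in the sources used here, so overlapping genes are counted with uncertainty. Per the labels' protocols, polyA RNA was made into stranded libraries. Identifiers were named from GENCODE M21 (32919 named, 5072 not), which also gave exon lengths. The 11 libraries held 19657030 to 28053367 counts.

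Low genes were removed by filterByExpr (count of at least 10, total of at least 15), and the rest were scaled by TMM and fitted with edgeR 4.0.16 (R 4.3.3), with 1 coefficient per group and robust quasi-likelihood dispersions. 5 comparisons were tested by F-test and adjusted by Benjamini-Hochberg over 17099 genes. The standard error is the change divided by the root of F. The scripts were tested on simulated counts. Alternatives were DESeq2 1.42.0 size factors and Wald test, limma-voom (limma 3.58.1), scaling to inner retina genes, no filter, a mean of at least 5 CPM, a replicate block, only the compared groups, and leaving out libraries. The members, gene lists and tests were chosen with earlier results of these data known. All members are named, and the others are the 2 genes per list that passed with the largest change in each direction, of which 1 is not reported here. Promoter windows came from RefSeq.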

Additional observations from a re-analysis of the deposited data

Results flagged for a closer look

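The change with GSK differed between rd10 and wild type, by the edgeR test of the interaction, in 17 of the 42 cilium genes (40.5%). Over all tested genes 7.49% were more positive in rd10 and 4.98% more negative. The DESeq2 Wald test also called some members more negative, as given above. By edgeR the difference (rd10 minus wild type, log2) was positive in each of the 17. In the BBSome it was 1.41 for Bbs5, 1.02 for Bbs7, 0.87 for Bbs9, 0.65 for Ttc8, 0.62 for Bbs2 and 0.27 for Bbs4. Its partners Bbs12 and Arl6 had 1.19 and 1.09. The IFT-A genes Ift43, Ift122 and Ttc21b had 0.75, 0.60 and 0.34. In the connecting cilium and transition zone it was 0.76 for Lca5, 0.66 for Cc2d2a, 0.64 for Nphp4 and 0.56 for Tmem67. Mak had 1.31 and Arl3 0.81. Of the 17, Bbs5, Bbs12, Ift122, Arl3 and Mak passed in all 19 alternative settings, and Bbs4 was lost in 13 and Bbs9 in 11.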

How the results depend on the processing

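The count of members that passed in rd10 saline against WT saline was 28 and stayed between 26 and 31 with each library left out, and 25 of the 28 passed in all 20 alternatives. In rd10 GSK against rd10 saline it was 28, with 22 to 28 when each library was left out, 19 with only the compared groups fitted and 21 without the lens-bearing libraries, and 18 of the 28 passed in all 20. WT GSK against WT saline had 0 in every alternative. The interaction count of 17 ran from 10 to 22 with each library left out and was 5 without the lens-bearing libraries. In rd10 GSK against WT saline the count of 21 ran from 3 to 25 with each library left out. It was 12 under inner retina scaling, 1 without the lens-bearing libraries and 5 with only the compared groups. Where an arm was left with 1 library, that library was taken to vary like the others. Under inner retina scaling small changes turned positive in 9 of the 11 members below 0 in rd10 GSK against rd10 saline and in 19 of 37 in rd10 GSK against WT saline. Those that passed under either scaling were, in the first comparison, Ift20 at 0.21, Ift52 at 0.26, Ift140 at 0.20 and Iqcb1 at 0.09. In rd10 GSK against WT saline those were Ift20 at 0.01, Ift52 at 0.20, Ift172 at 0.23, Ift122 at 0.05 and Ift140 at 0.01. The cause was not tested. A replicate block gave 28, 27, 0, 17 and 23 members in the 5 comparisons. Deviations of same-numbered libraries had r of -0.17, -0.14 and -0.08 between rd10 GSK and rd10 saline, 0.19 and 0.43 between rd10 GSK and WT saline (the 0.43 between the 2 lens-bearing libraries), 0.10 and 0.10 between rd10 saline and WT saline, and 0.01 and 0.05 between WT GSK and WT saline. The numbers were not taken as pairs. Every comparison with WT saline rests on 2 animals, which limits small changes most.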
